A study of Oryza sativa with 6 samples.

Results

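The regions described here carried a call of H3K9 acetylation (H3K9ac) in both libraries made 3 h after infestation and in no other library of the series. They number 432 of 17468 merged regions on the 12 nuclear chromosomes, which is 2.47%. A merged region joins all intervals of the 6 deposited peak lists that share at least 1 bp. The regions were chosen by the authors' calls in the 6 lists, which were cut by their own q, an adjusted p-value. The fold of a peak rests on the same fragments as its p-value. The pattern of calls and the 3 h folds are therefore a description, with no test.

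The study profiled leaves of rice (Oryza sativa) seedlings 20 days old in 3 groups of 2 libraries. Control plants received no insects, and the other groups were infested with the fall armyworm, Spodoptera frugiperda, for 3 h or for 12 h. The labels give no time for the controls, so infestation and time of sampling cannot be told apart. All libraries were made from leaf nuclei with an antibody to H3K9ac by CUT&Tag, in which a transposase tethered to the antibody cuts and tags the DNA around the mark. The labels of the samples name leaf as the tissue and are followed here, although the design text of the series names the whole seedling. The labels name no cultivar, no larval stage and no separate plants behind the replicates, and a leaf library averages over all cell types of the leaf, so a mark in fewer cells and a lower mark per cell cannot be told apart. The p-values below therefore measure only the spread between libraries, which may be technical.

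Acetylation of lysine 9 on histone H3 weakens the hold of the histone tail on DNA and is read by proteins with bromodomains. In plants it is set by histone acetyltransferases and removed by histone deacetylases, and it is concentrated just downstream of the start sites of transcribed genes. The mark can turn over quickly, and in rice a chewing caterpillar is known to set off calcium and kinase signalling and the jasmonate pathway early in the attack. Positions below are on build IRGSP-1.0; the files name sequences by RefSeq accession, and chromosome numbers follow the order of these accessions, from general knowledge of that record. No annotation of that build was used, so the regions are named by position and not by gene.

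Most regions shared by the 3 h replicates had a call elsewhere too. Of 8235 such regions, 2657 were called in all 4 other lists, 1687 in 3 of them, 2449 in 2, 1010 in 1 and 432 in none. The members are thus 5.25% of the regions that both 3 h libraries called. By the fold the authors give a summit's enrichment over the local background in the same library. Its values match fragments plus 1 over local background plus 1, so they lie below the plain ratio. Across these 5 classes the median 3 h fold went down step by step. In 3 h replicate 1 it was 4.44 where all 4 other lists had a call, 4.06 with 3, 3.76 with 2, 3.63 with 1 and 3.52 with none. In 3 h replicate 2 the same medians were 4.42, 4.05, 3.80, 3.56 and 3.36. The members had the lowest median of the 5 classes in each library.

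**Figure D1:**
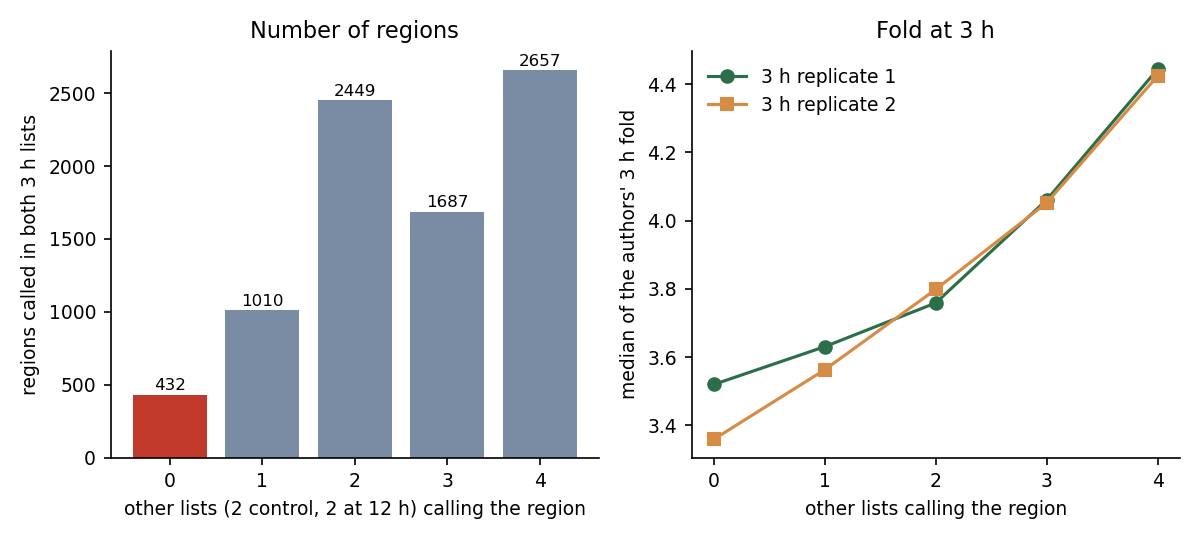
The left panel counts the 8235 regions called in both 3 h lists by how many of the other 4 lists (2 control, 2 at 12 h) called them, with the 432 members in red. The right panel gives the median 3 h fold enrichment of each class by library (its axis does not start at 0), from 3.52 and 3.36 at the members to 4.44 and 4.42 at regions called in all lists.

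The members were narrow regions with a single summit. In 3 h replicate 1 the called width had a median of 443 bp and ran from 339 to 1312 bp. In 3 h replicate 2 it had a median of 453.5 bp and ran from 323 to 1156 bp. The lowest widths are also the narrowest intervals of any kind in those 2 lists. Regions called in all 6 lists had median called widths of 900 and 959 bp in the same libraries. A single summit was listed at 98.1% of members in replicate 1 and at 97.2% in replicate 2, against 69.9% and 66.0% of the regions called in all lists. In all, 414 members had 1 summit in each replicate. Regions with fewer calls shared these traits. Those called at 12 h alone had median called widths of 473 and 525 bp and 1 summit at 96.8% and 95.2% in the 12 h libraries. Those called in a single 3 h list were narrower, with medians of 387 bp in replicate 1 and 390 bp in replicate 2, and had 1 summit at 99.8% and 99.3%.

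Few DNA fragments stood behind each member. Summit coverage, the number of fragments over the summit, follows from each peak's fold and −log10 p as the authors deposited them. It had a median of 13 fragments in each 3 h library, with ranges of 8 to 27 in replicate 1 and 8 to 31 in replicate 2. At regions called in all lists the medians were 22 and 24 fragments. They were 12 fragments at the regions of either single 3 h list and 11 in each 12 h library at regions called at 12 h alone, so low coverage was not particular to the members. Relative to the genome background of the library, the median member summit stood at 6.12 times in replicate 1 and 5.61 times in replicate 2. The regions called at both infested times and in no control reached 7.06 and 6.91 times, and those called in all lists 10.4 times in each library. The local background under the summit was 1.29 and 1.32 times the genome background at the median member, and 1.93 and 1.94 times at regions called in all lists. It was 1.28 times at regions of 3 h replicate 1 alone and 1.26 times at those of replicate 2 alone. Regions called at 12 h alone had 1.41 and 1.43 times in the 12 h libraries. A low local background was thus not particular to the members.

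The folds of the members lay in the lower part of each 3 h list. Their range was 2.19 to 5.71 in replicate 1 and 2.27 to 5.94 in replicate 2. The median member had a higher fold than 34.8% of all regions called in replicate 1 and 33.1% of those called in replicate 2. Among the highest-folded 10% of each list there were 3 members in replicate 1 and 7 in replicate 2. The −log10 q had medians of 3.29 and 3.22, where the lowest value that any list accepted was 1.30. It was at least 5 in both libraries at 8 members and in at least 1 library at 110 members (25.5%).

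The distance between the 3 h summits was not used in the selection beyond the overlap of intervals. The summits of the members lay a median of 120 bp apart, and 59.0% lay within 150 bp of each other. The medians were 113 bp at regions called at both infested times and at regions called in all lists, where 60.9% and 60.0% lay within 150 bp. At the regions called in control and at 3 h and not at 12 h the median was 157 bp, and 46.7% lay within 150 bp. Narrower intervals leave less room for summits to differ, so equal distances in base pairs are not equal in relation to width. On height, the fold was higher in replicate 1 at 233 members and in replicate 2 at 199. At 296 members (68.5%) the replicate folds were within 1.25 times of each other, and at 19 they differed by more than 1.5 times. Spearman's rho of the 3 h folds across members, which share their libraries and are no replicates of each other, was 0.31. It was 0.40 at regions called at both infested times and 0.64 at regions called in all lists, where folds span a wider range.

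**Figure D2:**
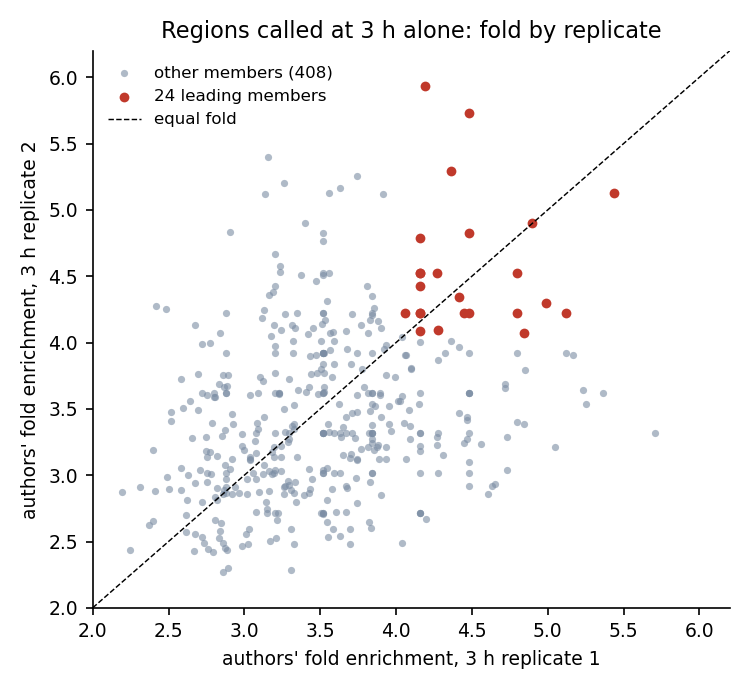
Each point is 1 of the 432 regions called at 3 h alone, with the authors' fold enrichment in 3 h replicate 1 on the x axis and in replicate 2 on the y axis. Red points are the 24 members with the highest lower fold, from 4.06 to 5.13, and the dashed line marks equal folds; points in columns and rows share a whole number of summit fragments over the genome background.

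The members were ranked by the lower of their 3 h folds, and the 24 leading ones are named here with their surroundings. All 24 had 1 summit in each replicate, and their summit coverage ran from 12 to 26 fragments. At 18 of them the −log10 q was below 5 in at least 1 replicate. They lay on 9 chromosomes, and each was more than 5 kb from the nearest region that a control list called. At 11 of them the local background equalled the genome background in both replicates (within 1%), against 64 of all 432 members (14.8%). This contrast is partly built in, since a low local background raises the fold used for the ranking.

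The leading member was on chromosome 5 from 17433127 to 17433634. It had folds of 5.44 and 5.13 in 3 h replicates 1 and 2, with 16 fragments at the summit in each library, and the replicate summits were 11 bp apart. Its nearest neighbour was another member, 11656 bp away on the same chromosome from 17445291 to 17445799, with folds of 3.50 and 4.01. The nearest region of any control list was 63982 bp away. The stretch around the leading member was therefore empty of control calls over a long distance, and a 12 h list had its nearest call 12305 bp away, 140 bp beyond the second member.

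The next member, on chromosome 1 from 4337621 to 4338495, had folds of 4.90 and 4.90, with 22 and 21 fragments. It was among the wider members at 875 bp, and it lay 21801 bp from the nearest region, which both 3 h lists, both 12 h lists and 1 control list called. Also on chromosome 1, the member from 29522720 to 29523204 had folds of 4.80 and 4.52, with 14 fragments in each replicate. Its nearest region was 7749 bp away and had the same 5 calls. Each of these pairs of replicate folds differed by less than 1.25 times.

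On chromosome 2, the member from 5600370 to 5600937 had folds of 4.36 and 5.29 and the highest coverage of the 24, with 18 and 26 fragments. A region called in both 3 h and both 12 h lists and in no control lay 3474 bp away. Farther along, the member from 21303728 to 21304475 had folds of 4.42 and 4.35, and its nearest region, 7392 bp away, was called in both 12 h lists and 1 control list and in neither 3 h list. The member from 3849579 to 3850017 had folds of 4.16 and 4.42. These 3 members had no region of any kind within 3 kb.

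On chromosome 11, the member from 18342078 to 18342909 had folds of 4.48 and 5.73, with 13 and 18 fragments. The member from 7494164 to 7494668 had the most unequal replicates of the 24, with folds of 4.19 and 5.94 and 13 and 22 fragments. It had a neighbour 264 bp away that 1 of the 3 h lists and 1 of the 12 h lists called. The member from 14153508 to 14154210, with folds of 4.80 and 4.22, was the most isolated of the 24: the nearest region was 72073 bp away and the nearest control region 173906 bp away. The member from 234155 to 234664 lay near the start of the chromosome and had folds of 4.16 and 4.79.

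On chromosome 9, the member from 1790664 to 1791043 had folds of 4.48 and 4.82, and the nearest region of a control list was 70827 bp away. The other 3 leading members of that chromosome were 13266488 to 13266937 (4.16 and 4.22), 12252326 to 12253096 (4.16 and 4.09) and 19511822 to 19512637 (4.85 and 4.08). On chromosome 10, the member from 16167459 to 16168155 had folds of 5.12 and 4.22 and was paired with a weaker member 7369 bp away, from 16159308 to 16160089, with folds of 2.88 and 4.22. The member from 5287222 to 5287774 had folds of 4.48 and 4.22. Both leading members of chromosome 10 stood over the genome background in both replicates.

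On chromosome 5, the members from 19686138 to 19686770 (4.45 and 4.22), from 6661111 to 6661617 (4.16 and 4.52) and from 21121167 to 21121922 (4.28 and 4.10) completed the 4 leading members of that chromosome. The one from 6661111 again had another member as its nearest region, 10803 bp away from 6649613 to 6650307, with folds of 3.29 and 3.28. Chromosome 6 held the members from 20901147 to 20901674 (4.99 and 4.29) and from 30206626 to 30207025 (4.06 and 4.22). The latter ended or began 28 bp from a region that a single 12 h list called. Chromosome 3 held 11627324 to 11627842 (4.27 and 4.52) and 6698289 to 6699023 (4.16 and 4.22), and chromosome 7 held 5821350 to 5821829 (4.16 and 4.52).

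At the other end of the ranking, the lowest member, on chromosome 4 from 27186719 to 27187244, had folds of 2.19 and 2.88 over a local background 3.61 and 3.47 times that of the genome. Also there, the member from 26573377 to 26573894 had folds of 2.25 and 2.43, with 25 and 28 fragments over a local background of 4.98 and 4.71 times. The other 3 of the 5 lowest were on chromosome 8 from 24543840 to 24544596, chromosome 12 from 25276396 to 25276883 and chromosome 1 from 39696067 to 39696756, with lower folds of 2.27, 2.28 and 2.30.

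Just outside the rule were the 1010 regions that both 3 h lists and exactly 1 other list called. The extra call was at 12 h in 458 and 426 of them (replicates 1 and 2), and in control in 51 and 75. The weakest extra call was on chromosome 2 from 5741905 to 5742496, where 12 h replicate 2 had a −log10 q of 1.32 and a fold of 2.73 beside 3 h folds of 4.89 and 3.44. On chromosome 7 from 22245831 to 22246508 the extra call, again in 12 h replicate 2, had a −log10 q of 1.33 and a fold of 2.29. Calls in a single 3 h list and nowhere else were more numerous than the members, with 886 regions (5.07% of all merged regions) in replicate 1 and 1596 (9.14%) in replicate 2.

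The libraries differed in what a call required. The 3 h libraries had a genome background of 2.13 and 2.32 fragments, the controls one of 2.43 and 2.0, and the 12 h libraries one of 1.49 and 1.43. A summit over the genome background needed 9 and 8 fragments to reach the smallest p-value accepted in the control lists, and 6 fragments in each 12 h list. To see what the members' heights would have amounted to elsewhere, the lower of each member's 3 h multiples of the genome background was carried to the background of each other library, with its relative local background kept. The median member would then have had 12.6 and 10.4 fragments in the control libraries, where 10 and 9 were needed at the median. At 12 h it would have had 7.71 and 7.40 fragments, where 7 were needed in each.

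At that height 343 members (79.4%) would have reached the threshold of both controls and 261 (60.4%) that of both 12 h lists. The same 261 would have reached all 4. Allowing for a shortfall of 2 times the square root of the expected fragments, a measure of counting error only, no member would have cleared the threshold of either 12 h list or of control replicate 2. In control replicate 1, 2 members would have cleared it. The margin was applied to each library alone, and the joint absence of a call from several lists was not tested. The heights carried over are those of regions chosen for passing in both 3 h lists, so the choice itself can raise them. The size of that effect was not tested.

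Heights and calls moved together over all 8235 regions called in both 3 h lists. Where the height carried to 12 h amounted to 0.75 to 1 times the fragments needed, both 12 h lists called 51.8% of 1264 regions and neither called 18.8%. From 1 to 1.25 times it was 68.3% and 10.4% of 3265 regions, from 1.25 to 1.5 times 87.3% and 3.29% of 1912, and from 1.5 to 2 times 95.6% and 1.30% of 1461. Of the 432 members, 171 fell in the first of these classes, 233 in the next, 24 in the third and 4 in the last. No member reached 2 times, among 313 regions that did. The median ratio was 1.03 for the members, 1.15 for regions called at both infested times and not in control, and 1.48 for regions called in all lists. It was also 1.15 for the 105 regions (0.601% of all merged regions) called in both control and both 3 h lists and in neither 12 h list. Of those regions, which lack the 12 h call as the members do, 73.3% had a ratio of at least 1. The share was 81.6% at the regions called at both infested times and not in control, and 60.4% at the members. The cause of the missing 12 h calls was not tested.

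**Figure D3:**
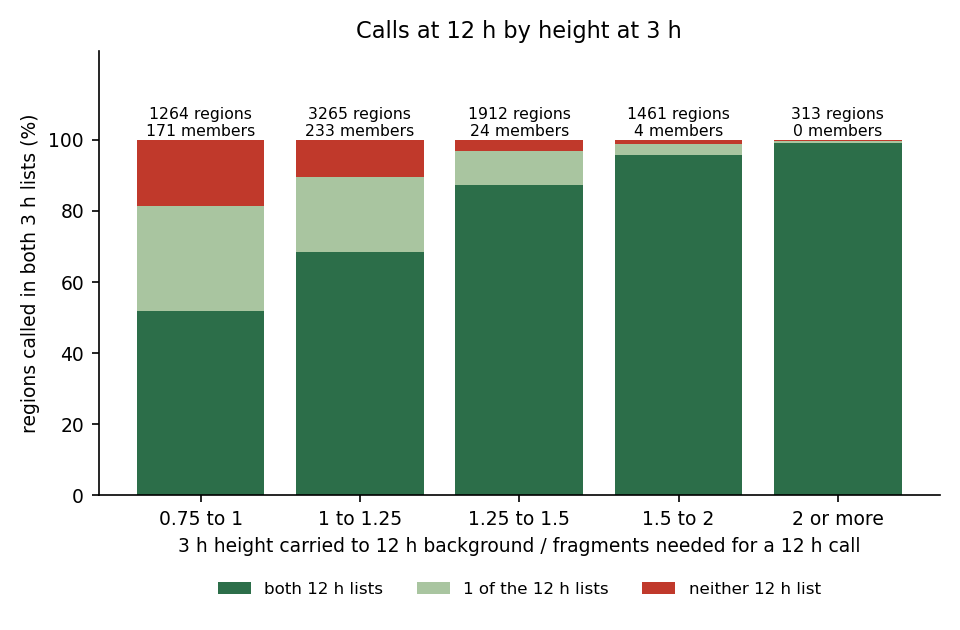
Bars divide the regions called in both 3 h lists by their calls at 12 h, in percent, against the ratio of the 3 h height carried to the 12 h background to the fragments needed for a 12 h call (the lower of the 12 h libraries; 20 regions under 0.75 are not drawn). The share called in neither 12 h list goes from 18.8% at 0.75 to 1 down to 1.30% at 1.5 to 2, and the numbers above the bars show that 404 of the 432 members lie in the leftmost pair of bars.

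The 4 members with a ratio of at least 1.5 are those whose missing 12 h calls stand farthest from the threshold. They are the leading member on chromosome 5 from 17433127 (ratio 1.65), the member on chromosome 1 from 4337621 (1.62), the member on chromosome 6 from 20901147 (1.59) and the member on chromosome 2 from 5600370 (1.51). All 4 are among the 8 leading members by fold, which is partly built in, since ratio and fold rest on the same 3 h coverage and local background. Of the 2068 regions called at both infested times and not in control, 170 (8.22%) had such a ratio, and of those called in all lists 1252 (47.1%). Of the 105 regions called in control and at 3 h and not at 12 h, 14 (13.3%) had one.

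The nearest merged region of any kind lay a median of 6602.5 bp away (4 to 100545 bp), and 134 members (31.0%) had none within 10 kb. The medians were larger at regions called at 12 h alone (7189 bp), at both infested times and not in control (7639.5 bp) and in all lists (7763 bp). A region lay within 5 kb of 37.7% of members and of 33.4%, 25.4% and 24.4% of these classes in turn. Regions of a single 3 h list were nearer to others, with medians of 5605 bp in replicate 1 and 5985 bp in replicate 2. The nearest region called in a control list was a median of 16197.5 bp away, and the nearest called at 12 h a median of 7868.5 bp. A control region lay within 5 kb of 66 members (15.3%) and a 12 h region within 5 kb of 133 (30.8%). Within 500 kb on each side of a member there was a median of 9 regions called in both controls, 24 called in both 3 h lists and 25 called in both 12 h lists. The medians were 10, 25 and 26 around regions called in all lists.

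At 61 members (14.1%) another region lay within 1 kb, compared with 9.85% of the 589 regions called at 12 h alone (3.37% of all merged regions). The share was 18.6% and 16.1% at regions called in 3 h replicate 1 or 2 alone, and 13.3% at those called in control and at 3 h and not at 12 h. It was 4.98% of the regions called at both infested times and not in control, and 4.89% of those called in all lists. The median merged widths of these classes were 903 and 1202 bp, against 617 bp at the members. Regions called in control and at 3 h and not at 12 h had a median of 1045 bp. The part of width in these shares was not tested. Of the 61 neighbours, 18 were called by 1 of the 12 h lists alone, 10 by 1 of the 3 h lists alone and 5 by 1 control list alone. Both 3 h lists called another 13, including 5 with a call in all 6 lists, and the other 15 had other patterns. The gap was at most 100 bp at 16 members, and in 9 of these the neighbour was a region of a single 12 h list. On chromosome 3, the member from 22930453 to 22930860 was 4 bp from such a region, and so was the member from 28809911 to 28810486; both were chosen after their values were seen. Such neighbours share no base with the member, so the rule counts the member as missing at 12 h; whether signal continues across the gap was not tested. On chromosome 5, 18494572 to 18495031 lay 61 bp from a region that both 12 h lists called, with 12 h folds of 2.75 and 3.34 beside 3 h folds of 2.74 and 3.19 at the member. On chromosome 4, 1124425 to 1125125 lay 764 bp from a region with 12 h folds of 4.44 and 4.0. The 12 h and 3 h folds given here belong to different regions and to libraries of unlike genome background, so they do not measure equal signal.

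The calls of each library around the members were compared, with the members themselves left out as neighbours. The rule did not use these calls directly, but it bears on them. A control or 12 h call that overlaps a region bars it from membership, while one that just misses it counts as a neighbour. The comparison is therefore not independent of the rule. Another region called by the library lay within 5 kb of 10.6 and 12.0% of members in the control lists. The shares were 17.4 and 26.2% in the 3 h lists and 23.4 and 25.2% in the 12 h lists. The control shares were the lowest, and the 12 h shares lay between those of the 3 h replicates. The 3 h mean was 21.8 ± 6.22% (SD, n = 2) and the mean of the other 4 libraries 17.8%, a difference of 3.94 percentage points, smaller than the spread between the 3 h replicates (exact permutation p = 0.533, two-sided; adjusted p = 0.8 over 3 tests, where the smallest possible p is 0.133). The controls listed 5150 and 5644 peaks, the 3 h libraries 11738 and 14010 and the 12 h libraries 12548 and 12167, so the shortest lists also had the lowest shares, while of the 12 h libraries the one with the longer list had the lower share. The part of list length in the difference was not tested. Without 3 h replicate 2 the difference turned to −0.46 points.

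**Figure D4:**
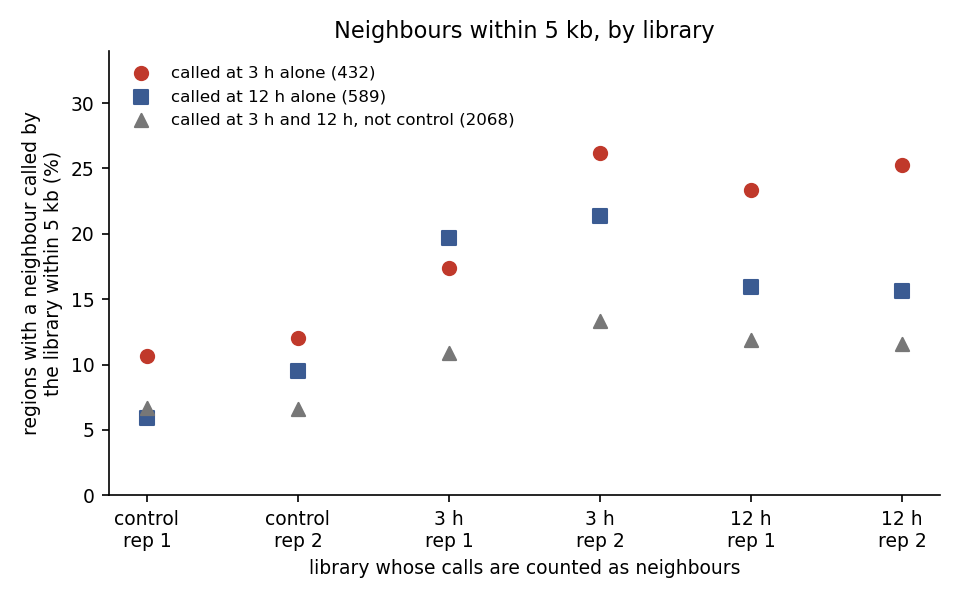
For each library on the x axis, points give the percentage of regions that have another region called by that library within 5 kb, for the 432 members (red), the 589 regions called at 12 h alone (blue) and the 2068 called at both infested times and not in control (grey). Members have neighbours most often in 3 h replicate 2 (26.2%) and the 12 h lists (23.4 and 25.2%) and least often in the control lists (10.6 and 12.0%). The control lists also give the lowest shares in both other classes. Regions of the same class were not counted as neighbours, which can lower the shares in the lists that call the class. Levels are therefore not directly comparable between classes.

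Shared regions near the members carried no raised 3 h signal that could be told from the spread between libraries. Of the 2657 regions called in all lists, 21 lay within 5 kb of a member. Their median log2 fold relative to the median of all 2657 was −0.05 and −0.15 in the controls. The 3 h libraries gave −0.26 and −0.10, and the 12 h libraries −0.34 and −0.27. The value was below 0 in all 6 libraries, and the 3 h values lay within the range of the others. The 3 h mean exceeded that of the other 4 libraries by 0.02 on the log2 scale (exact permutation p = 0.8, two-sided; adjusted p = 0.8). The called width of the same neighbours, measured likewise, was lower at 3 h by a log2 difference of −0.04 (exact permutation p = 0.8, two-sided; adjusted p = 0.8). Both differences changed sign when 3 h replicate 2 was left out, to −0.0600 for fold and 0.0628 for width, and that of fold also without 12 h replicate 1 (−0.02).

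The members were spread over all chromosomes in numbers near the background share of 2.47% of merged regions. Chromosome 1 held 58, the most in number, which was 2.37% of its merged regions. The share was lowest on chromosome 8, with 25 members (2.03%), and highest on chromosome 11, with 30 (2.99%). Chromosome 5 with 42 members (2.89%) and chromosome 10 with 27 (2.89%) followed. Regions called at 12 h alone exceeded the members in share on all chromosomes other than 6, where each class had 36 regions.

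**Figure D5:**
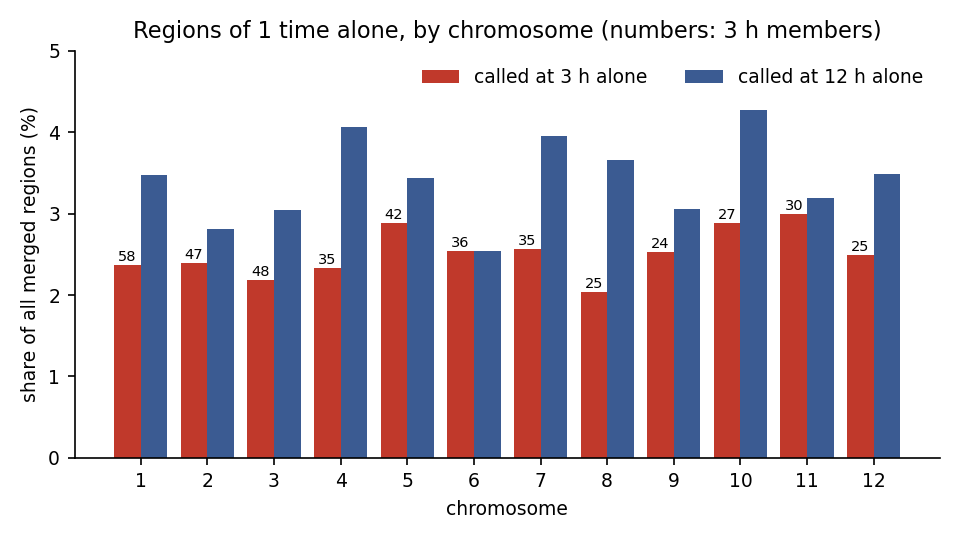
Bars give the percentage of the merged regions of each chromosome that were called at 3 h alone (red, with the number of members above) and at 12 h alone (blue). The red bars run from 2.03% on chromosome 8 to 2.99% on chromosome 11, around the 2.47% of all merged regions.

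Another member was within 50 kb of 53 members (12.3%), forming 25 pairs and 1 run of 3. The like share within the own class was 5.71% at the 105 regions called in control and at 3 h and not at 12 h. It was 21.2% at the 589 called at 12 h alone, and 25.7% and 39.8% at the 886 and 1596 of 3 h replicate 1 or 2 alone. The 2068 called at both infested times and not in control had 48.2%. The share rose with the number of regions in the class, so the spacing was not particular to the members. Only 2 members had another within 5 kb. They form the closest pair, on chromosome 10 from 3394333 to 3394906 and from 3397825 to 3398416, 2918 bp apart. The folds of the first were 3.74 and 3.13 and those of the other 3.54 and 2.65, and the nearest region of a 12 h or control list was over 30 kb from each. On chromosome 7, members from 23237039 to 23237694 and from 23244316 to 23245090 were 6621 bp apart, with no region of any list between them and folds of 2.91 and 4.83 at the first. The run of 3 was on chromosome 3 from 22930453 to 22971973. These places were chosen after their values were seen.

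Some members were far from all other calls. At 8 of them no merged region lay within 50 kb, and at 65 no control region did. The most isolated, on chromosome 12 from 16405886 to 16406558, was 100545 bp from the nearest region and had folds of 3.52 and 3.32 with 10 fragments in each replicate. On chromosome 6, 18985249 to 18985925 had the highest fold of any member in replicate 1, 5.71 with 20 fragments, but 3.32 with 10 fragments in replicate 2, and lay 69368 bp from the nearest region. The member farthest from control calls was on chromosome 12 from 7103147 to 7104278, at 201810 bp, with folds of 3.54 and 4.31 and 16 and 21 fragments; a region called in 1 of the 3 h and 1 of the 12 h lists lay 2048 bp away. The highest coverage in replicate 2 was on chromosome 7 from 21469495 to 21469867, with 22 and 31 fragments over a local background of 3.32 and 3.25 times that of the genome, and folds of 2.86 and 3.75. These members were also chosen after their values were seen.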

How the data were processed

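H3K9ac was profiled by CUT&Tag in 6 libraries of rice leaf, 2 per group, and grouped by their titles. The submitters' processing notes name MACS2 2.1.0, Bowtie 1.1.2, Trimmomatic 0.33 and bcl2fastq 2.17, and the build IRGSP-1.0, with no settings or input control. The authors deposited 1 list of peaks per library, with the fold enrichment (a ratio), −log10 p, −log10 q, a whole-number score (not used further) and the summit position (the other deposited column). The smallest −log10 q is near 1.30, a q of 0.05. All lists were cut by their own q, so a missing call is no measurement of absence.

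Summits listed for one stretch of DNA were taken as 1 interval, and intervals sharing 1 bp were merged. A region's fold in a library is that of its highest summit. Summit coverage and local background were recovered from fold and −log10 p for 100% of peaks (tolerance 0.001 on −log10 p); a list's genome background is the lowest local background in it. Recovery, merging and the permutation test were tested on simulated data. The median summit coverage of 13 to 17 fragments limits precision. Exact permutation tests, two-sided, compared library values, 3 h against the other 4 libraries, with Benjamini-Hochberg adjustment over 3 tests. Same-numbered replicates did not deviate together in fold across shared regions, which does not settle whether the numbers mark pairs, and no block was used. Named regions are the 24 with the highest lower 3 h fold, and the 5 lowest. The members and lists were chosen with earlier results of these data known. Python 3.11.15, numpy 2.4.6, pandas 2.3.3 and scipy 1.17.1 were used.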

Additional observations from a re-analysis of the deposited data

How the results depend on the processing

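The number of regions called at 3 h alone, 432, depended on the lists. With −log10 q of at least 5 in the 3 h lists alone it was 8. With that limit in all lists it was 305, of which 8 were among the 432, since the limit also removes weak calls of the other lists. With lists of equal length (5079 peaks) it was 149, again with 8 of the 432. Merging intervals up to 200 bp apart gave 419 regions, and asking the 3 h intervals to share at least 50% of each gave 330. Leaving out each library in turn gave 484 to 2055 regions: 2055 and 1358 when 3 h replicate 1 or 2 was dropped, and 895 and 863 when 12 h replicate 1 or 2 was. By construction these sets hold all 432. Of settings chosen after seeing the data, 261 members would reach the 4 other thresholds at their 3 h multiple, 255 had 3 h summits up to 150 bp apart and 371 had no region within 1 kb. The 3 comparisons of neighbours could not reach 0.05 under any setting, since the smallest possible p is 0.133 with all 6 libraries and larger with fewer or with the block, and their signs varied. The share with a neighbour differed by −0.46 to 8.33 points when each library was left out in turn, by −2.55 points from 12 h alone and by 10.4 points from control alone. The log2 fold of shared neighbours differed by −0.0600 to 0.109 when each was left out, by −0.0757 from control alone and by 0.125 from 12 h alone, and the log2 width by −0.136 to 0.0628. With the replicate block, permuting within replicate numbers, the difference in share was 3.94 points with an exact p of 0.667, where the smallest possible p is 0.222. The p was 0.889 for fold and 0.667 for width. Same-numbered libraries had deviations of fold with correlations of −0.03 to 0.01 over 2657 shared regions, so no joint deviation by region was seen. Such correlations do not register a shift common to a whole library, so whether the numbers mark pairs is not known. The planned gene context, gene lists and sequence features of members were not run, because no annotation or sequence of the build was used here. The cause of the changes with list length and q was not tested, and median summit coverage of 13 fragments at members limits every count.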
